A study of Mus musculus with 8 samples.

Results

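The genes described here encode enzymes that place or remove acetyl and methyl groups on histones and other proteins. Their RNA was read by RNA-seq in mouse bone marrow neutrophils. They were chosen by symbol: rows whose name starts with Kdm, Kmt, Hdac, Sirt, Prmt, Ezh, Setd or Kat followed by a digit, plus Carm1. Such names were carried by 68 of the 24421 genes listed, and 66 of these, detected with a count of 1 or more in 2 or more of the 8 libraries, were among the 12254 genes tested. The 66 members comprised 11 Hdac and 7 Sirt deacetylases, 7 Kat acetyltransferases, 16 methyltransferases named Kmt, Setd or Ezh (mostly enzymes of lysine, though Setd3 methylates a histidine of actin), 17 Kdm demethylases, and 8 arginine methyltransferases (the Prmt genes and Carm1). Kdm5d and Prmt8 were in the table and did not reach the filter.

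The study compared wild-type (WT) and Padi4-/- (KO) C57BL/6 mice, 8 weeks old, and asked how their neutrophils answer R848, an agonist of Toll-like receptor 7. Padi4 encodes peptidylarginine deiminase 4 (PAD4), which converts arginine to citrulline on histones, and the KO mice carried a deletion of its exon 1 in every tissue. The 4 groups had 2 libraries each: WT unstimulated, WT with 1 µg/ml R848 for 6 h, KO unstimulated, and KO with 1 µg/ml R848 for 6 h. The unstimulated libraries carry 0 h in their names, whereas the methods describe wells left unstimulated beside wells stimulated for 6 h, so whether time in culture differed with R848 cannot be told apart. The cells of all groups were magnetically isolated from bone marrow, and in such bulk RNA fewer cells of a type and less RNA per cell cannot be told apart.

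Histone acetyltransferases of the Kat family acetylate lysines, a mark of active chromatin, and Hdac enzymes and NAD-dependent sirtuins take the acetyl group off. Lysine methyltransferases with a SET domain write methyl marks whose effect depends on the residue, and Kdm demethylases remove them. For example, most Kmt2 enzymes act on histone H3 lysine 4 at active genes and Ezh1 or Ezh2 (Polycomb) on H3 lysine 27 at silent genes. Prmt enzymes methylate arginine, the residue that PAD4 citrullinates.

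The libraries held 562446 to 1177972 counts on genes, of which 0.385% to 0.479% fell on the 66 members (2349 to 5143 counts), so members with few counts are measured poorly. Levels below are counts scaled to library size (CPM) after TMM normalization, and on that scale a count of 3 equals 2.18 to 6.11 CPM. There were 47 members with at least 10 counts on average. Padi4 itself was read 590 and 527 times in the unstimulated WT libraries, 166 and 234 in WT with R848, 40 and 54 in unstimulated KO and 34 and 21 in KO with R848, which was lower in KO by 4.45 (log2) unstimulated and by 3.92 after R848. Markers of mature and immature neutrophils led in every library (77899.7 to 108158 and 53340 to 74389 CPM of the library total), Ly6g was not among the rows of the table, and the erythroid, monocyte, stroma and proliferation lists, which moved between groups, are given with the arginine methyltransferases and Ezh2 below.

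Members are named by the table's symbols, and 2 of these are older names, Setd8 for Kmt5a and Prmt10 for Prmt9. For orientation, levels were divided by the merged exon length of each gene (GENCODE M21, GRCm38), which is the only scale on which different genes are compared. In unstimulated WT neutrophils the highest were Setd8 at 40.3 ± 0.0991 CPM per kb (SD, n = 2), the histone H4 lysine 20 monomethyltransferase, and Kdm6b at 39.98 ± 0.364 CPM per kb, the H3 lysine 27 demethylase also known as Jmjd3. The H3 lysine 9 and 27 demethylase Kdm7a followed at 36.3 ± 1.57 CPM per kb, then the sirtuin Sirt7 at 28.7 ± 3.14 and the H3 lysine 4 demethylase Kdm5c at 28.5 ± 1.58. The gap between Setd8 and Kdm6b was smaller than the SD of Kdm6b but not that of Setd8, and the gap between Sirt7 and Kdm5c was smaller than either SD. The median over the 66 members was 5.47 CPM per kb, and 18 members exceeded 10. The Kat genes had the highest class median (13.6 CPM per kb) and the arginine methyltransferases the lowest (1.96 CPM per kb). Hdac11 and Kdm4d had no count in either unstimulated WT library.

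The first comparison asked which members changed with R848 in WT neutrophils. The one member that rose more than 2-fold was Setd8, and 5 fell more than 2-fold: Ezh2, Kat2b, Kat6b, Hdac10 and Hdac8. With edgeR's quasi-likelihood test at a Benjamini-Hochberg false discovery rate (FDR) below 0.1 and a change over 2-fold, 7.17% of all genes tested were higher and 10.8% lower, against 1 and 5 of the 66 members. At that FDR whatever the size, 9 members rose (13.5% of all genes did) and 9 fell (16.0% of all genes). The median change over all 66 members, called or not, was -0.11 (log2), beside -0.17 over all genes. Among the 47 members averaging 10 or more counts it was -0.04, beside -0.07 over all such genes.

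The same comparison in KO neutrophils gave 2 members that rose more than 2-fold, Setd8 and Sirt2, and 6 that fell: Kat6b, Kdm7a, Prmt5, Kat2a, Hdac10 and Hdac9. Over all genes 8.07% rose and 8.84% fell by this rule. At the FDR alone 15 members rose and 10 fell, and 19.2% and 15.9% of all genes did. The median change over all members, called or not, was 0.03, beside -0.03 over all genes. These directions depend on how libraries are scaled: with library size alone the median response of all genes moved by -0.30 in WT and by -0.37 in KO, and the counts of members rising and falling more than 2-fold became 0 and 8 in WT and 0 and 11 in KO. With DESeq2 they were 2 and 3 in WT and 1 and 2 in KO. Among all calls, the share of higher ones was 39.8% in WT and 47.7% in KO with TMM, 23.0% and 23.1% with library size alone, and 53.0% and 53.5% with DESeq2.

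**Figure D1:**
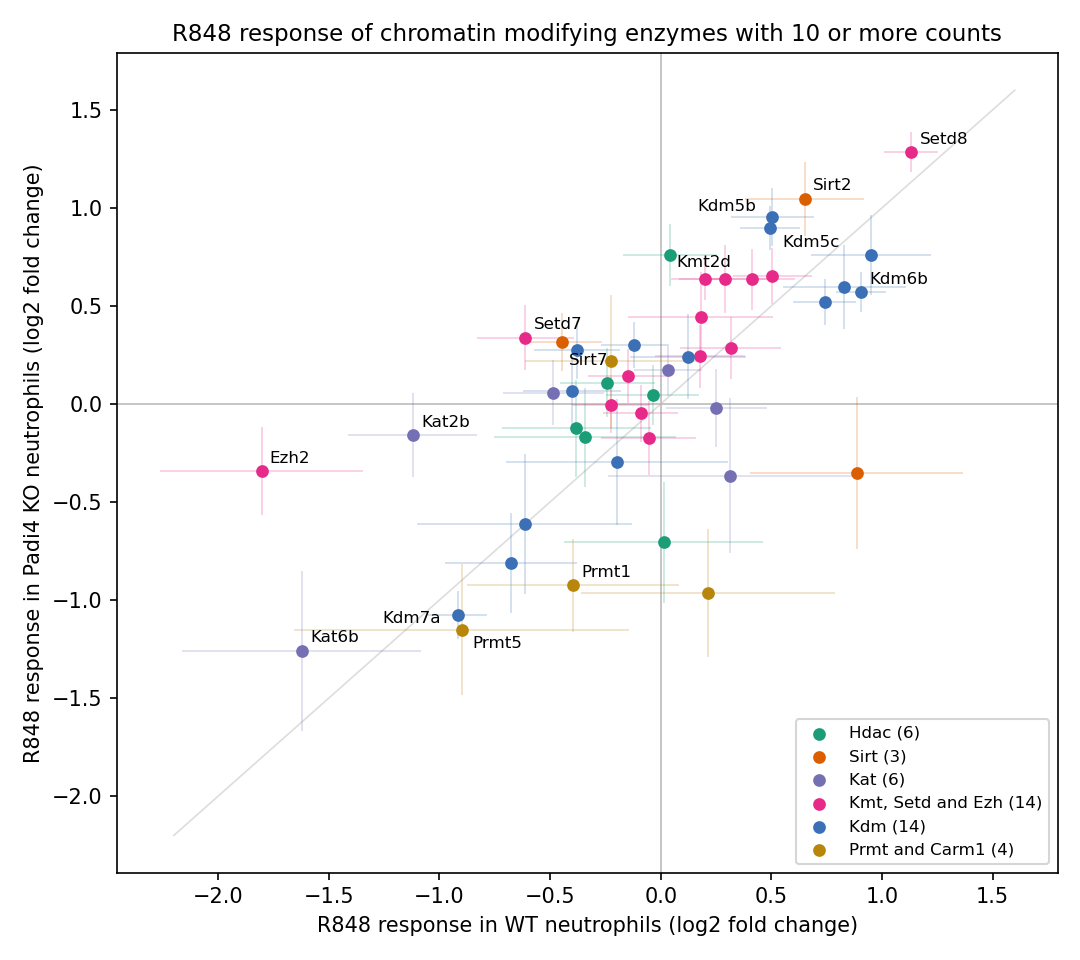
R848 response of the 47 members averaging 10 or more counts, as log2 fold change over the unstimulated libraries in WT (horizontal axis) and in Padi4 KO (vertical axis), with bars of 1 SE and colours for enzyme class; the diagonal marks equal responses. Setd8 lies at the upper right, at 1.13 in WT and 1.28 in KO, and Ezh2 at the left, at -1.80 in WT and -0.34 in KO.

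The 9 members that passed the FDR as higher in WT were all higher in KO as well: Setd8, Kdm6b, Kdm1a, Kdm2a, Kdm3a, Kdm5b, Kdm5c, Kmt2b and Sirt2. Over all genes 84.7% of those higher in WT were higher in KO. Another 4 of the 9 lower in WT were lower in both genotypes, Kdm7a, Kdm4c, Kat6b and Hdac10, and over all genes 56.9% of those lower in WT were. Members higher in both made up 13.6% and members lower in both 6.06% of the 66, beside 11.4% and 9.12% of all genes, and 37 members (56.1%) passed in neither genotype, beside 56.3% of all genes. Kdm4c, a demethylase of H3 lysine 9 and 36, changed by -0.68 ± 0.30 in WT and -0.81 ± 0.26 in KO. Its WT call was lost in 5 of the 8 fits with 1 library left out (FDR up to 0.49), with relative log expression factors (FDR 0.13) and with DESeq2 (adjusted p = 0.38), and its KO call without KO unstimulated replicate 2 (FDR 0.15, edgeR) and with DESeq2 (adjusted p = 0.12).

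Setd8 showed the clearest rise. Its levels were 213 and 214 CPM in unstimulated WT and 465 and 473 CPM in WT with R848, and 178 and 180 CPM in unstimulated KO and 461 and 411 CPM in KO with R848. Every R848 library was above every unstimulated library. The change was 1.13 ± 0.12 (log2, SE; FDR 4.6e-19, edgeR) in WT and 1.28 ± 0.10 (FDR 2.8e-34, edgeR) in KO. With library size alone it was 0.83 and 0.91, under 2-fold but past the FDR. The responses of the genotypes differed by 0.15 (95% interval -0.17 to 0.47), which did not pass the test. Setd8 is annotated at chr5:124439930-124462308 on the plus strand of GRCm38 with 12 merged exon blocks, and no other annotated gene shares its exons.

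Kdm6b, which removes the Polycomb mark, is known as a gene that inflammatory signals induce in myeloid cells. It stood at 280 and 276 CPM in unstimulated WT and rose to 491 and 549 CPM with R848, a change of 0.91 ± 0.11 (FDR 4.7e-14, edgeR). In KO it went from 219 and 221 CPM to 308 and 347 CPM, a change of 0.57 ± 0.10 (FDR 3.0e-07, edgeR). The R848 libraries of KO lay below those of WT, and so did the unstimulated ones, without overlap. The difference between the responses, -0.33 (95% interval -0.64 to -0.03), did not pass the test across all genes (FDR 0.29, unadjusted p = 0.031, edgeR). With library size alone the KO rise was 0.19 and did not pass, while the WT rise of 0.60 did, and without KO R848 replicate 2 the KO rise was 0.36 and passed.

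The other demethylases that rose in both genotypes act on H3 lysine 4 (Kdm1a, Kdm5b and Kdm5c), lysine 9 (Kdm3a) and lysine 36 (Kdm2a). Kdm5c had 195 and 211 CPM in unstimulated WT, 273 and 296 CPM in WT with R848, 173 and 148 CPM in unstimulated KO and 291 and 300 CPM in KO with R848. Kdm5b had 85.0 and 107 CPM, 141 and 131 CPM, 66.7 and 76.9 CPM, and 129 and 153 CPM in the same order, and Kdm2a 142 and 185 CPM, 265 and 278 CPM, 146 and 155 CPM, and 211 and 222 CPM. For all of these genes the R848 libraries stood above the unstimulated ones of their genotype. In WT the changes were 0.49 ± 0.14, 0.50 ± 0.19 and 0.74 ± 0.14, and in KO 0.90 ± 0.11, 0.95 ± 0.15 and 0.52 ± 0.12. Kdm1a changed by 0.95 ± 0.27 in WT and 0.76 ± 0.20 in KO, and Kdm3a by 0.83 ± 0.28 and 0.60 ± 0.21. Under library size alone Kdm3a, Kdm5b and Kdm5c lost the call in WT, as Kdm1a, Kdm2a and Kdm3a did in KO, with the direction kept, and with DESeq2 Kdm5b lost it in WT (adjusted p = 0.12) and Kdm1a and Kdm3a in KO (adjusted p = 0.20 and 0.40). Without WT unstimulated replicate 1 Kdm3a (0.60, FDR 0.23) and Kdm5b (0.34, FDR 0.35) missed the FDR in WT, and without KO unstimulated replicate 2 Kdm1a (0.46, FDR 0.21) and Kdm3a (0.50, FDR 0.21, all by edgeR) missed it in KO, as Kdm3a also did without either KO R848 library (0.39 and 0.53).

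Kdm7a, a demethylase of the repressive H3 lysine 9 and 27 marks, moved the other way. It fell from 354 and 376 CPM to 165 and 218 CPM in WT and from 246 and 240 CPM to 119 and 111 CPM in KO. The groups did not overlap, and KO lay below WT in each state. The change was -0.92 ± 0.13 (FDR 5.3e-11, edgeR) in WT and -1.08 ± 0.12 (FDR 1.7e-17, edgeR) in KO, and it passed the FDR under each alternative scaling and with DESeq2, the WT change being -0.61 without WT R848 replicate 1. Because Setd8 rose as Kdm7a fell, their count ratio within a library, which no scaling changes, went from 0.603 and 0.569 to 2.81 and 2.17 in WT and from 0.720 and 0.749 to 3.87 and 3.69 in KO. This ratio, like the ratio of Kdm6b to Ezh2 below, was chosen after the values were seen.

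**Figure D2:**
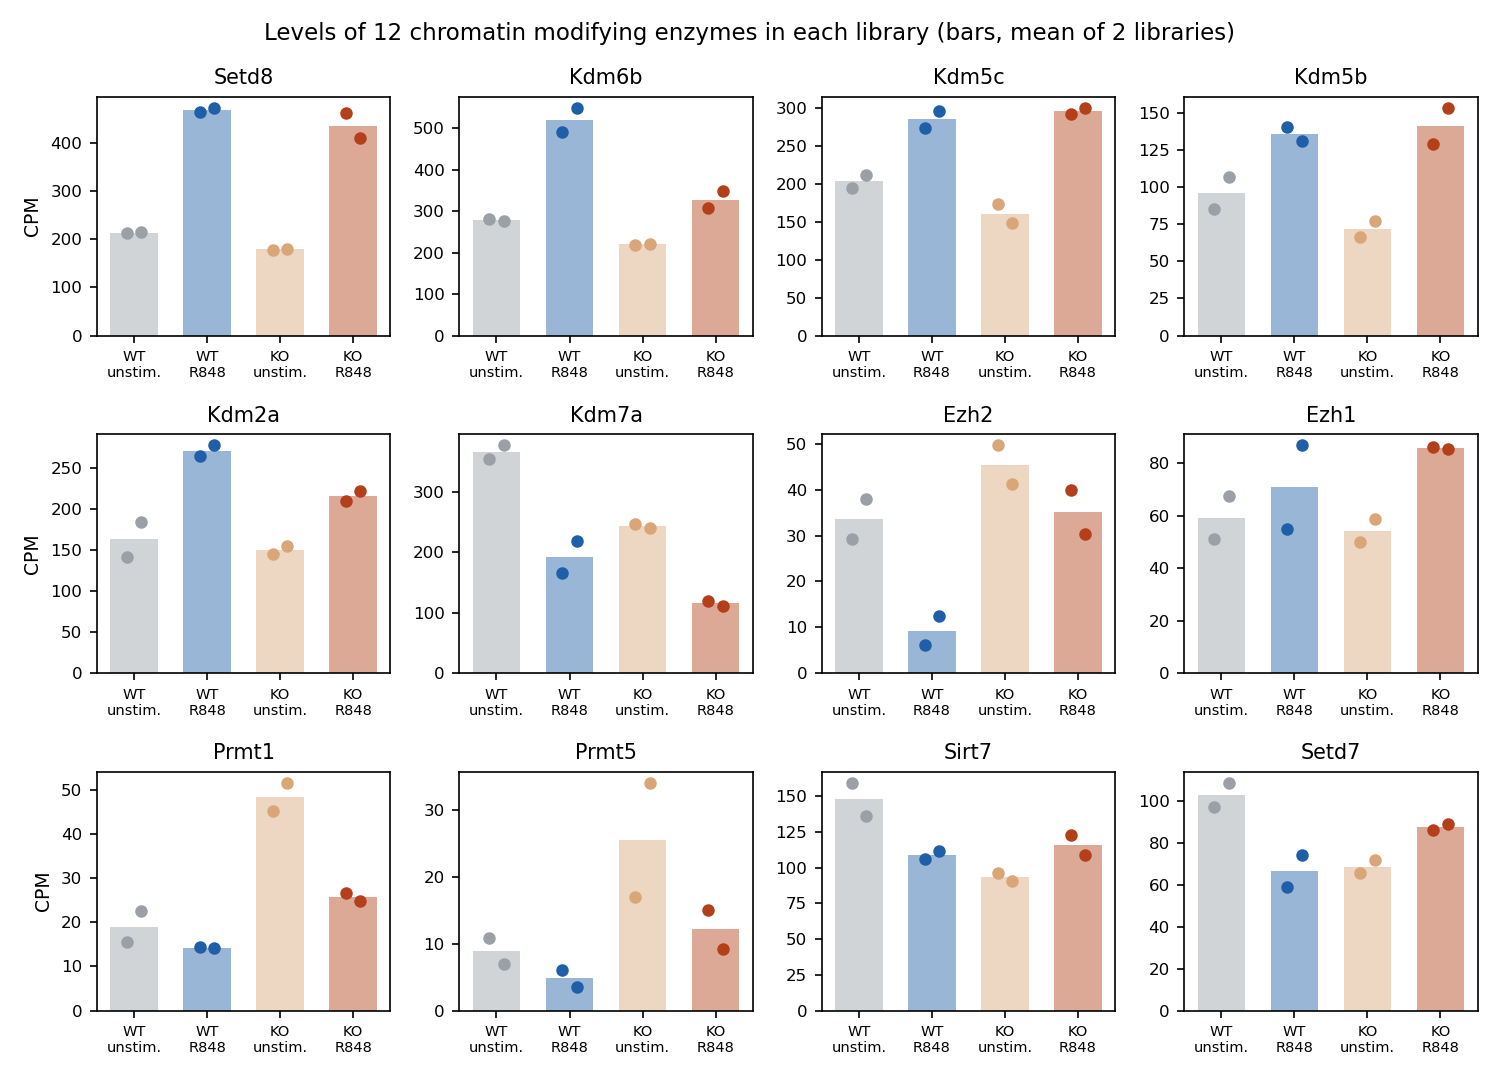
Levels in CPM (TMM scaling, vertical axes from 0) of 12 members, with points for the 2 libraries of each group and bars for their mean. Setd8, Kdm6b, Kdm5c, Kdm5b and Kdm2a were higher and Kdm7a lower after R848 in both genotypes, Ezh2 was lowest in WT with R848 (6.11 and 12.4 CPM), and Prmt1 was highest in unstimulated KO (45.2 and 51.5 CPM).

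The promoters shown are those of the members that moved more than 2-fold the same way in both genotypes and have an entry in the RefSeq table used here (GRCm38.p6). Setd8 has 3 annotated starts, of which the first is printed, and Kat6b has 2 that lie 15 bases apart. Each run holds the 250 bases before the start on the plus strand. Capitals mark matches, on either strand, to SP1 (GGGCGG), ETS (CCGGAAG), E-box (CACGTG), CRE (TGACGTCA), AP-1 (TGANTCA) and the NF-kB consensus.
Setd8, chr5:124439680-124439929: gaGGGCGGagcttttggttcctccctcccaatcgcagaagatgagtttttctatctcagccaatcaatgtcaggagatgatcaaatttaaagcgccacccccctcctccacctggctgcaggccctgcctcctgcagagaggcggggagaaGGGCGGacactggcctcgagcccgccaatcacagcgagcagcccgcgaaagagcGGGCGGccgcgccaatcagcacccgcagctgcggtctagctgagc
Kat6b, chr14:21499520-21499769: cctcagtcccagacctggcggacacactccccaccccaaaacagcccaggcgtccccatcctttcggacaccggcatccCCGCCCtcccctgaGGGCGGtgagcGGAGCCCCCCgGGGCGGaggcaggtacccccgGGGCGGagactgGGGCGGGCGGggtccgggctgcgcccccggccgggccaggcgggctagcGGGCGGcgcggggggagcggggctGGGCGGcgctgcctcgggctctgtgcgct
The Setd8 run held 3 SP1 matches and none of the other motifs, and the same was true of its second start. The Kat6b run held 8 SP1 matches, some of them overlapping, and 1 NF-kB match. In windows from 250 bases before to 50 after the start, SP1 was present in 59.7% of the 72 promoters of the 53 members with an entry and in 35.7% of all 32851 promoters, the NF-kB consensus in 15.3% and 8.46%, ETS in 18.1% and 8.86%, AP-1 in 11.1% and 7.81%, E-box in 9.72% and 7.15%, and CRE in 1.39% and 1.79%. The members' promoters had a median GC content of 61.2%, and all promoters 52.7%.

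Kat6b, a MYST acetyltransferase of histone H3, fell in both genotypes, from few counts. It went from 23.2 and 24.2 CPM to 10.2 and 5.31 CPM in WT and from 19.2 and 18.1 CPM to 6.22 and 9.19 CPM in KO. The groups did not overlap, with changes of -1.62 ± 0.54 (FDR 0.014, edgeR) in WT and -1.26 ± 0.41 (FDR 0.0090, edgeR) in KO. Without the WT R848 replicate 2 the WT change was -1.10 and no longer passed (FDR 0.27, edgeR), and with DESeq2 neither passed (adjusted p = 0.15 and 0.14). Hdac10, with 6.38 counts on average, also fell in both, with changes of -3.76 ± 1.00 and -1.76 ± 0.59. The WT change rests on 0 and 1 counts with R848, and was -6.65 without WT R848 replicate 2 and -2.83 without replicate 1. The KO call of Hdac10 was lost without KO unstimulated replicate 2 or R848 replicate 2 and with DESeq2 (adjusted p = 0.17).

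The Polycomb methyltransferase Ezh2, a gene of dividing cells, fell with R848 in WT. Its levels were 29.4 and 38.0 CPM in unstimulated WT and 6.11 and 12.4 CPM with R848, against 49.7 and 41.4 CPM in unstimulated KO and 40.0 and 30.3 CPM in KO with R848. The WT groups did not overlap and the KO groups did not either, by a small gap. The WT change was -1.80 ± 0.46 (FDR 0.00066, edgeR), and the KO change -0.34 ± 0.22 (FDR 0.27, edgeR). The difference of the responses, 1.46 ± 0.52, did not pass the test (FDR 0.11, edgeR), so the responses are not shown to differ. Ezh1, its relative of resting cells, was at 51.0 and 67.3 CPM in unstimulated WT, 55.0 and 86.8 CPM in WT with R848, 49.7 and 58.8 CPM in unstimulated KO and 86.2 and 85.5 CPM in KO with R848. It passed the test in KO (0.64 ± 0.17, FDR 0.0014, edgeR) and not in WT, and the difference of responses was not significant (FDR 0.70, edgeR). The KO rise of Ezh1 missed the FDR with library size alone (0.26, FDR 0.25, edgeR) and with DESeq2 (adjusted p = 0.21).

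The ratio of Ezh2 to Ezh1 counts within a library was 0.576 and 0.564 in unstimulated WT, 0.111 and 0.143 in WT with R848, 1.00 and 0.704 in unstimulated KO and 0.464 and 0.355 in KO with R848. The ratio of Kdm6b to Ezh2 was 9.53 and 7.27, 80.3 and 44.3, 4.41 and 5.35, and 7.71 and 11.5 in the same order. Both ratios separate WT with R848 from the other groups, where it rests on 3 and 7 Ezh2 counts. Proliferation markers were also lowest in WT with R848 and highest in unstimulated KO: 20 genes such as Mki67 had a summed level, per library total, of 1487 to 1696 CPM in unstimulated WT, 739 to 761 in WT with R848, 2968 to 2986 in unstimulated KO and 1993 to 1998 in KO with R848. Of these 20, 9 were more than 2-fold lower after R848 in WT and their median change was -0.80 in WT and -0.22 in KO. The part of these cells in the Ezh2 values was not tested.

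Among acetyltransferases Kat2b (PCAF) fell in WT from 61.8 and 70.8 CPM to 24.5 and 35.4 CPM, a change of -1.12 ± 0.29 (FDR 0.00092, edgeR), and in KO it stood at 39.6 and 49.3 CPM before and 41.8 and 39.5 CPM after R848. Without the WT R848 replicate 1 the WT change was -0.76 and no longer passed (FDR 0.11, edgeR). Its paralogue Kat2a (GCN5) fell in KO from 18.1 and 23.9 CPM to 4.44 and 7.35 CPM, by -1.85 ± 0.42 (FDR 8.8e-05, edgeR). In WT Kat2a had 1.55 and 17.3 CPM before and 4.08 and 1.77 CPM after R848, which overlapped, a change of -1.61 ± 0.87 (FDR 0.18, edgeR). The difference of responses was called for neither Kat2b nor Kat2a. Kat5 (Tip60) had 71.1 and 62.2 CPM, 89.7 and 70.8 CPM, 47.5 and 52.2 CPM, and 53.3 and 46.0 CPM, and did not pass in either genotype.

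Of the 11 Hdac genes 5 (Hdac1, Hdac2, Hdac3, Hdac6 and Hdac11) passed in no comparison. Hdac1, with 88.1 to 99.3 CPM in the 8 libraries, and Hdac3, with 26.5 to 40.2 CPM, are catalytic subunits of corepressor complexes. Among Hdac genes with at least 10 counts Hdac5, a class IIa enzyme, rose in KO from 80.3 and 58.8 CPM to 112 and 117 CPM (0.76 ± 0.16, FDR 1.2e-05, edgeR; 0.38 with library size alone), and in WT it stood at 88.1 and 86.3 CPM and at 69.3 and 108 CPM. The class IIa enzyme Hdac7 fell in KO by 0.71 ± 0.31 (log2), which was lost without unstimulated replicate 1 (-0.37) or R848 replicate 2 (-0.64) and with DESeq2 (adjusted p = 0.32). Hdac8 in WT (6.18 and 3.45 CPM, then no count) and Hdac9 in KO (1.13 and 5.81 CPM, then no count) were below 10 counts on average. The Hdac8 call was lost without WT unstimulated replicate 1 or either WT R848 library, and the Hdac9 call without KO unstimulated replicate 2.

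Among sirtuins Sirt2, a mostly cytoplasmic deacetylase, rose from 37.1 and 46.6 CPM to 71.3 and 60.2 CPM in WT (0.65 ± 0.27, FDR 0.060, edgeR) and from 33.9 and 42.1 CPM to 72.9 and 88.2 CPM in KO (1.05 ± 0.19, FDR 3.3e-07, edgeR). The KO rise of Sirt2 passed the FDR but stayed under 2-fold with relative log expression factors (0.96), library size alone (0.67) and DESeq2 (0.99), and without KO R848 replicate 2 (0.78). The WT call of Sirt2 was lost without unstimulated replicate 1 (0.49) or R848 replicate 1 (0.67), with library size alone (0.35, FDR 0.37, edgeR) and with DESeq2 (adjusted p = 0.18). Its exons share 42 of 5035 bases with Nfkbib on the opposite strand, a gene whose own counts rose by 2.28 in WT and 2.17 in KO (log2), and the library kit does not mark strand. Whether Nfkbib reads add to Sirt2 was not tested. Sirt1 had 12.4 and 12.1 CPM in unstimulated WT, 24.5 and 21.2 CPM with R848, 13.6 and 16.0 CPM in unstimulated KO and 15.1 and 8.27 CPM in KO with R848, and passed in neither genotype. Sirt3, Sirt4 and Sirt5 had under 3 counts on average.

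Sirt7 and Setd7 were the members whose response differed between genotypes by the test of the difference, and 3.45% of all genes were called higher and 1.26% lower in that test, against 2 and 0 of the 66 members. By edgeR 13 members (19.7%) had an unadjusted p below 0.05, as did 13.4% of all genes, and with DESeq2 none was called. Setd7, a monomethyltransferase with many protein substrates, had 97.4 and 109 CPM in unstimulated WT, 59.1 and 74.4 CPM in WT with R848, 65.6 and 71.8 CPM in unstimulated KO and 86.2 and 89.1 CPM in KO with R848. With TMM scaling it thus stood lower after R848 in WT and higher in KO, with no overlap in either genotype. Per library total the KO libraries of Setd7 overlapped, at 81.0 and 89.8 CPM before and 82.3 and 85.5 CPM after R848, and with library size alone its KO response was -0.039 (FDR 0.89, edgeR). Its responses were -0.61 ± 0.22 (FDR 0.024) and 0.34 ± 0.17 (FDR 0.11), and they differed by 0.95 ± 0.27 (FDR 0.024, all by edgeR). The WT fall of Setd7 missed the FDR without WT unstimulated replicate 2 (-0.53) or WT R848 replicate 1 (-0.33) and with DESeq2 (adjusted p = 0.23).

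Sirt7, a nuclear sirtuin that deacetylates H3 lysine 18, had 159 and 136 CPM in unstimulated WT, 106 and 112 CPM in WT with R848, 96.1 and 90.7 CPM in unstimulated KO and 123 and 108 CPM in KO with R848. The responses were -0.45 ± 0.18 (FDR 0.053) and 0.32 ± 0.15 (FDR 0.092), differing by 0.76 ± 0.23 (FDR 0.038, all by edgeR). Neither response of Sirt7 held in most other fits. With library size alone the KO response turned to -0.062 (FDR 0.79, edgeR), while the WT response was -0.75 (FDR 0.00023, edgeR). Of the 8 fits with 1 library left out the KO response missed the FDR in 6 and the WT response in 5. Both also missed it with relative log expression factors (FDR 0.12 in WT and 0.24 in KO, edgeR) and with DESeq2. Sirt7 shares 124 of 5148 exon bases with Mafg on the same strand, whose counts rose by 1.29 in WT and 1.39 in KO. With relative log expression factors neither difference passed (0.79 for Setd7, FDR 0.11, and 0.60 for Sirt7, FDR 0.19), with library size alone both did (FDR 0.056 and 0.097). Left-out libraries moved the differences to between 0.53 and 1.03 for Setd7 and to between 0.43 and 0.86 for Sirt7, and most of these fits lost the call.

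Most Kmt2 enzymes methylate H3 lysine 4 at promoters and enhancers. Kmt2d (Mll4) had 280 and 352 CPM in unstimulated WT and 351 and 372 CPM with R848, and rose in KO from 191 and 216 CPM to 280 and 360 CPM (0.64 ± 0.10, FDR 1.3e-08, edgeR), with a difference of responses that did not pass (FDR 0.12, edgeR). The KO rise of Kmt2d was 0.32 (FDR 0.070, edgeR) without KO R848 replicate 2 and 0.26 (FDR 0.042, edgeR) with library size alone. Kmt2b rose in both genotypes (0.50 ± 0.18 and 0.65 ± 0.14), which R848 replicate 2 of each genotype decided, since without it the changes were 0.31 and 0.33 and did not pass, nor did WT without its unstimulated replicate 2 (0.45). With library size alone neither Kmt2b change passed (0.20 and 0.28), and with DESeq2 the WT one did not (adjusted p = 0.12). Kmt2a had 110 and 70.8 CPM, 110 and 97.4 CPM, 69.0 and 81.3 CPM, and 94.2 and 86.4 CPM, and passed in no comparison. Setd5 rose in KO by 0.64 ± 0.15, which missed the FDR with library size alone (0.26, FDR 0.19, edgeR) and with DESeq2 (adjusted p = 0.11). Kdm3b rose in KO by 0.30 ± 0.12, going to -0.0768 with library size alone and missing the FDR without any one KO or WT R848 library.

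The next comparison asked which members differed between KO and WT neutrophils without stimulation. Here 15 members were lower and 5 higher in KO, when 14.4% of all genes were lower and 9.55% higher at an FDR below 0.1 whatever the size. The 5 higher members were Prmt1, Prmt5, Prmt7, Carm1 and Kat2a, so 4 of the 8 arginine methyltransferases were higher, and no other class had more than 1 higher member. The median over the 66 members was -0.18, and over all genes -0.03. Among the 47 better measured members 31.9% were lower and 6.38% higher, beside 24.2% and 12.4% of all such genes.

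Prmt1, the main asymmetric arginine methyltransferase, had 15.5 and 22.4 CPM in unstimulated WT, 45.2 and 51.5 CPM in unstimulated KO, 14.3 and 14.2 CPM in WT with R848 and 26.7 and 24.8 CPM in KO with R848. KO stood above WT in both states without overlap, and the unstimulated difference was 1.38 ± 0.31 (FDR 0.00011, edgeR). After R848 it was 0.85 (FDR 0.16, edgeR). This call passed under every alternative scaling, with DESeq2 (adjusted p = 0.046) and with each library left out.

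Prmt5, the symmetric arginine methyltransferase, had 10.8 and 6.91 CPM in unstimulated WT and 17.0 and 34.1 CPM in KO, a difference of 1.59 ± 0.43 (FDR 0.0024, edgeR). Carm1 (Prmt4), a transcription coactivator that methylates histone H3 arginines, had 9.28 and 12.1 CPM in WT and 28.3 and 25.4 CPM in KO, a difference of 1.31 ± 0.42 (FDR 0.012, edgeR). Prmt7, which monomethylates arginine, was read 1 and 2 times in WT but 8 and 21 times in KO (2.32 ± 0.73, FDR 0.010, edgeR). For each of them KO lay above WT, but Prmt5 rested on KO replicate 2, without which the difference was 0.92 and did not pass, Carm1 was lost without WT replicate 1 (1.13), and Prmt7 without either (1.85 and 1.83). With DESeq2 none of these 3 passed (adjusted p = 0.19, 0.20 and 0.21). Of the other arginine methyltransferases Prmt2, Prmt3, Prmt6 and Prmt10 did not pass, and Prmt10 had 35.6 and 19.0 CPM in WT and 14.7 and 16.7 CPM in KO. The acetyltransferase Kat2a, read 1 and 10 times in WT but 16 and 33 times in KO (1.25 ± 0.46, FDR 0.037, edgeR), was 3.69 without WT replicate 2 and was lost without WT replicate 1 (0.32) or KO replicate 2 (1.01) and with DESeq2 (adjusted p = 0.45).

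With R848, 3 of the 8 arginine methyltransferases fell in KO and none rose past the FDR, where 15.9% of all genes fell and 19.2% rose: Prmt1 by 0.92 ± 0.24 (FDR 0.00057), Carm1 by 0.96 ± 0.33 (FDR 0.013) and Prmt5 by 1.15 ± 0.33 (FDR 0.0028, all by edgeR). In WT the changes were -0.40 for Prmt1 (FDR 0.59), 0.21 for Carm1 (FDR 0.86) and -0.90 for Prmt5 (FDR 0.45, all by edgeR). Of the other 5 in KO, Prmt3 (-0.21) and Prmt7 (-0.43) stood below 0 and Prmt2 (0.92, from 1.38 counts on average), Prmt6 (0.03) and Prmt10 (0.22) above, none past the FDR. With DESeq2 none of the 3 falls in KO passed (adjusted p = 0.10 for Prmt1, 0.22 for Carm1 and 0.25 for Prmt5), and without unstimulated KO replicate 2 the Prmt5 change was -0.47 and did not pass. Differences of the response did not pass for Prmt1 (FDR 0.77), Carm1 (FDR 0.46) or Prmt5 (FDR 1.0, all by edgeR). Summed over the 8 genes with TMM scaling, the class stood at 94.3 and 76.0 CPM in unstimulated WT, 59.1 and 77.9 CPM in WT with R848, 125 and 162 CPM in unstimulated KO and 95.1 and 94.7 CPM in KO with R848. Per library total the sums were 95.2 and 78.2 CPM, 47.5 and 65.8 CPM, 155 and 202 CPM, and 90.8 and 90.8 CPM in the same order. On that scale the R848 libraries lay below the unstimulated ones in both genotypes, whereas with TMM those of WT overlapped.

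Cell cycle, erythroid, stroma and monocyte markers moved between the groups too. Of the 20 proliferation markers 14 were higher in unstimulated KO and 18 after R848 in the same test. Of 22 erythroid markers 20 were in the table, with sums (per library total) of 350 to 357 CPM in unstimulated WT, 247 to 316 in WT with R848, 1926 to 1932 in unstimulated KO and 2151 to 2173 in KO with R848. Of the 15 erythroid markers tested, 13 were higher in unstimulated KO and 15 after R848, whereas the 5 hemoglobin genes listed had no count in any library. Neutrophil markers were lower in KO, at 77899.7 to 85171 CPM for the mature list against 93144 to 108158 CPM in WT. Monocyte markers summed to 535 to 660 CPM in unstimulated WT, 2975 to 3074 in WT with R848, 1375 to 1380 in unstimulated KO and 3178 to 3265 in KO with R848. The rise of this sum with R848 lay mostly in Adgre1 (26 and 22 counts, then 1240 and 1332 in WT) and Csf1r (81 and 94, then 430 and 569). By the 2-fold rule 3 of the 12 monocyte markers rose and 2 fell in WT, and 3 rose and 5 fell in KO. The median change of the list was -0.94 in WT and -1.10 in KO. The 10 stroma and endothelium markers, mostly the collagen genes Col1a1 and Col1a2, summed to 247 to 310 CPM in unstimulated WT, 136 to 139 in WT with R848, 610 to 769 in unstimulated KO and 93.5 to 98.5 in KO with R848, so like the arginine methyltransferase sum they were highest in unstimulated KO and lower after R848 in KO. Of the 7 stroma markers tested 3 were higher and 1 lower in unstimulated KO, and Emcn had no count. The magnetic kit was meant to leave CD11b+ Ly6G+ cells, which the methods describe as nearly pure. The part of other cells in the arginine methyltransferase and Ezh2 values was not tested.

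**Figure D3:**
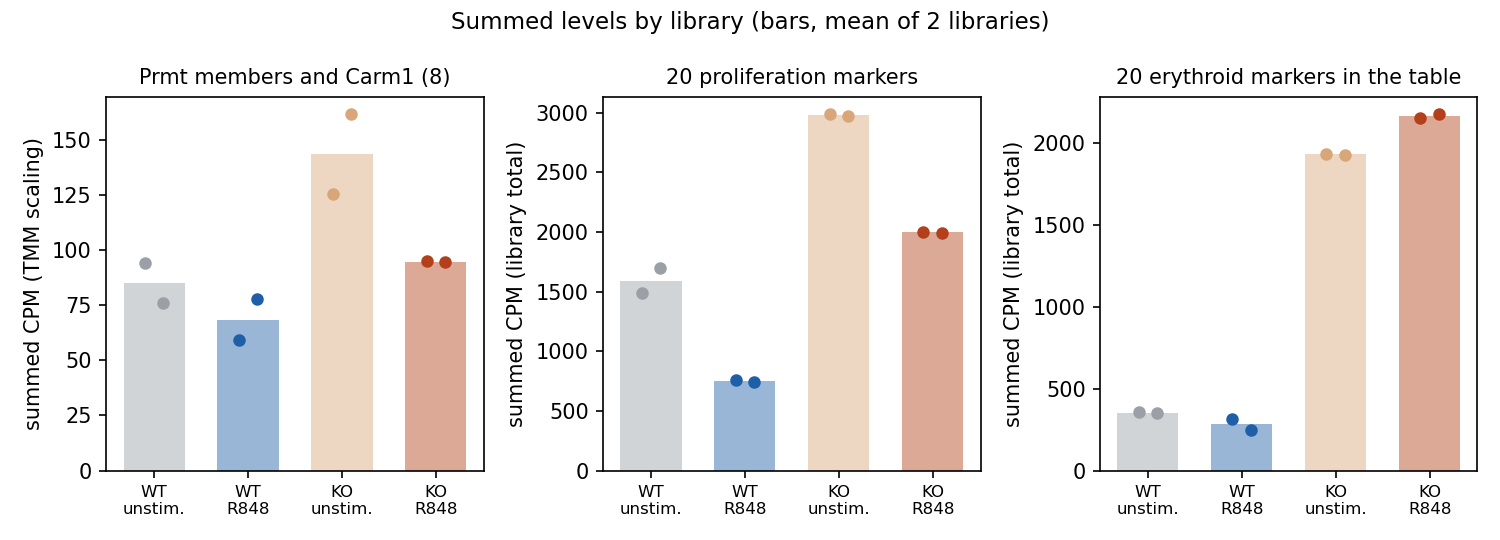
Summed CPM by library for the 8 arginine methyltransferases (left, TMM scaling) and, per library total, for 20 proliferation markers (middle) and the 20 erythroid markers in the table (right), with points for libraries and bars for the mean of 2. All 3 sums were higher in unstimulated KO than in unstimulated WT, by 125 and 162 against 94.3 and 76.0 CPM for the enzymes.

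The 15 members lower in unstimulated KO included 6 demethylases, 5 methyltransferases, 2 acetyltransferases, Hdac4 and Sirt7. By smallest p the leading ones were Kdm7a at -0.59 ± 0.11 (FDR 2.3e-06), Kmt2d at -0.61 ± 0.12 (FDR 2.9e-06), Sirt7 at -0.67 ± 0.16 (FDR 0.00029) and Kat6a at -0.49 ± 0.14 (FDR 0.0053, all by edgeR). Kat6a, a MYST acetyltransferase, had 141 and 219 CPM in WT and 116 and 134 CPM in KO, without overlap, and its difference was lost without WT replicate 2 (-0.15). The rest were between -0.33 and -0.58 and comprised Kdm3b, Kdm4a, Kdm5a, Kdm5c, Kdm6b, Kmt2c, Kmt2e, Setd2, Setd7, Kat2b and Hdac4. Kmt2e shares 972 of 10444 exon bases with Srpk2 on the opposite strand. Srpk2 itself differed by -0.93 in unstimulated KO (FDR 1.1e-09, edgeR) and by -0.063 after R848. Whether Srpk2 reads add to Kmt2e was not tested. The count of 15 fell to 6 without any one of the 4 R848 libraries, and to 8 without WT unstimulated replicate 1 or 2 or KO unstimulated replicate 2. With library size alone the median of all genes moved by 0.29, 3 members were lower and 7 higher, and with DESeq2 3 were lower and 1 higher, and the share of higher calls over all genes was 39.9% with TMM, 77.2% with library size alone and 44.8% with DESeq2. Kdm7a, Kmt2d and Sirt7 passed under all of these, with differences of -0.30, -0.33 and -0.39 by library size alone.

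After R848, 7 members were lower and 1 higher in KO, with 7.81% of all genes lower and 9.46% higher, and medians of 0.07 over the members and 0.08 over all genes. The higher one was Ezh2, at 1.88 ± 0.42 (FDR 0.00014, edgeR), from the levels above, and it passed under each scaling, with DESeq2 (adjusted p = 0.036) and with each library left out. The lower ones were Kdm7a at -0.74 ± 0.15 (FDR 1.3e-05), Kdm6b at -0.67 ± 0.10 (FDR 2.8e-09), Kat5 at -0.68 ± 0.22 (FDR 0.017), Setd2 at -0.62 ± 0.21 (FDR 0.032), and Kdm2a, Kat6a and Kmt2e between -0.33 and -0.41. Kat5 was lost without WT R848 replicate 1 (-0.65), Kdm2a without WT R848 replicate 2 (-0.37), Kmt2e without the latter (-0.51) or KO R848 replicate 1 (-0.29), and Kat6a without WT R848 replicate 1 or either unstimulated KO library. Setd2, which trimethylates H3 lysine 36 along transcribed genes, had 91.2 and 79.4 CPM, 83.6 and 81.4 CPM, 61.1 and 60.2 CPM, and 50.6 and 57.0 CPM in unstimulated WT, WT with R848, unstimulated KO and KO with R848, so the KO libraries lay below the WT ones in both states. Kdm6a, the X-linked relative of Kdm6b, had 58.7 and 46.6 CPM, 61.1 and 54.9 CPM, 44.1 and 35.6 CPM, and 48.9 and 43.2 CPM, and passed in no comparison. With library size alone 9 members were higher and 2, Kdm6b and Kdm7a, lower, the median of all genes having moved by 0.21, and the share of higher calls went from 54.8% to 81.8%. With DESeq2 1 was higher and 2 lower, the same ones, and 38.4% of its calls were higher.

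**Figure D4:**
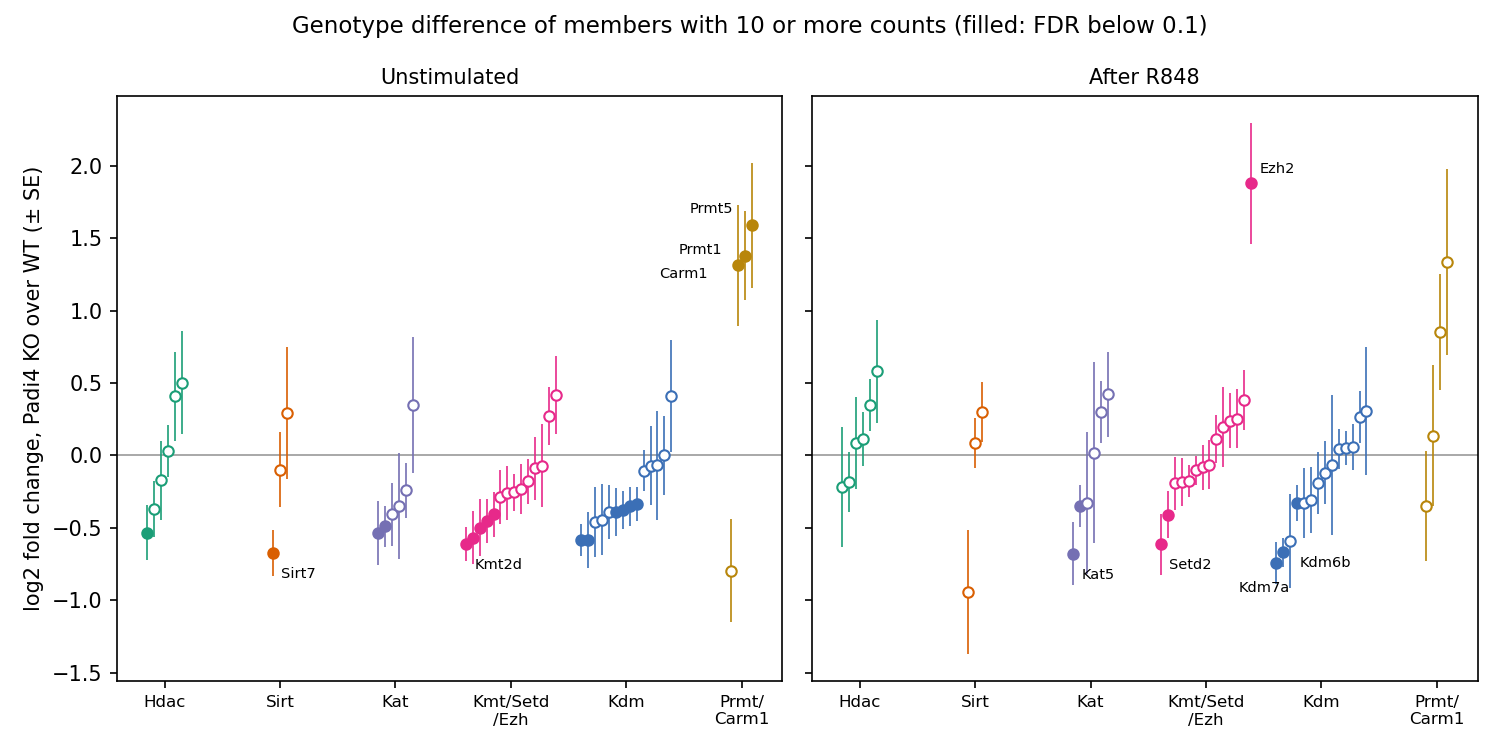
Difference between Padi4 KO and WT (log2 fold change, ± SE) of the 47 members averaging 10 or more counts, by class, for unstimulated cells (left) and after R848 (right), with filled points for an FDR below 0.1. In the unstimulated panel Carm1, Prmt1 and Prmt5 stand at 1.31 to 1.59 and most other classes below 0, and after R848 the point apart is Ezh2 at 1.88.

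By class sums, which count every member whether or not it was called, the Kdm genes went from 1718 and 1789 CPM to 1928 and 2110 CPM with R848 in WT, and from 1371 and 1363 CPM to 1657 and 1727 CPM in KO. The Kmt, Setd and Ezh genes went from 1554 and 1713 CPM to 1875 and 2004 CPM in WT and from 1279 and 1332 CPM to 1774 and 1946 CPM in KO. With TMM scaling the R848 libraries of these methylation classes lay above the unstimulated ones in both genotypes. Per library total this did not hold for the Kdm genes, at 1733 and 1842 CPM before and 1551 and 1782 CPM after R848 in WT and at 1693 and 1704 CPM before and 1583 and 1657 CPM after in KO. The Kmt, Setd and Ezh genes then overlapped in WT (1568 and 1764 CPM, then 1508 and 1692 CPM), and in KO they still lay higher after R848 (1579 and 1666 CPM, then 1695 and 1867 CPM). The Kat genes summed to 404 and 489 CPM, 404 and 359 CPM, 329 and 369 CPM, and 334 and 339 CPM in the order used above, and the Hdac genes to 385 and 382 CPM, 310 and 361 CPM, 362 and 337 CPM, and 367 and 376 CPM. Per library total the Hdac sums were 388 and 393 CPM, 249 and 305 CPM, 447 and 422 CPM, and 351 and 361 CPM, so that unstimulated KO lay above unstimulated WT and R848 libraries below unstimulated ones in both genotypes, and the Kat sums were 407 and 503 CPM, 325 and 304 CPM, 406 and 461 CPM, and 319 and 325 CPM. The sirtuins summed to 223 and 205 CPM, 212 and 204 CPM, 164 and 169 CPM, and 223 and 219 CPM, with unstimulated KO below the other 3 groups. Per library total it was not: the sirtuin sums were 225 and 212 CPM in unstimulated WT, 170 and 172 CPM in WT with R848, 202 and 211 CPM in unstimulated KO and 213 and 210 CPM in KO with R848.

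RNA counts of 183 other chromatin genes were also taken from lists, and 169 of these genes were tested. The lists held partners of the member enzymes and also methyltransferases, demethylases and acetyltransferases whose symbols fall outside the naming rule. In WT 18 (10.7%) passed the FDR as higher and 30 (17.8%) as lower after R848, beside 13.5% and 16.0% of all genes, and in KO 40 (23.7%) and 28 (16.6%), beside 19.2% and 15.9%. In unstimulated KO 7 (4.14%) were higher and 31 (18.3%) lower than in WT, beside 9.55% and 14.4% of all genes, and after R848 18 (10.7%) and 9 (5.33%), beside 9.46% and 7.81%. The difference of responses was called for 7 (4.14%, beside 3.45% of all genes), all higher. The gene with the smallest p was Asxl1, a partner of the Bap1 deubiquitinase, with 334 and 375 CPM in unstimulated WT, 137 and 124 CPM in WT with R848, 200 and 205 CPM in unstimulated KO and 167 and 182 CPM in KO with R848. Its WT fall of 1.44 ± 0.14 (log2) was larger than its KO change, by 1.22 ± 0.19 (FDR 3.0e-08, edgeR). Chd4, the remodeler of the NuRD deacetylase complex, rose by 0.96 ± 0.11 in WT and 0.61 ± 0.09 in KO, and Dot1l, the H3 lysine 79 methyltransferase, was higher in KO after R848 by 1.21 ± 0.24 (FDR 2.0e-05, edgeR).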

How the data were processed

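The deposited table holds raw read counts per gene in 8 libraries. The authors checked reads with FastQC 0.11.7, trimmed them with cutadapt 1.16, aligned them to mm10 with STAR 2.5.3a and counted them with HTSeq 0.6.1p1. The annotation and strand setting were not given in the sources used here, and the kit (TruSeq v2) does not mark strand. Rows that name no gene were left out of library sizes, and 86.97% to 89.45% of counts lay on genes.

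Genes with at least 1 count in at least 2 libraries (12254) were fitted with edgeR 4.0.16 (R 4.3.3): TMM factors, quasi-likelihood F-test, all 8 libraries in 1 model with a term per group. The Benjamini-Hochberg false discovery rate was 0.1, with a change over 2-fold for the R848 responses. All adjusted values run over all genes tested. The methods describe duplicates, and no label says they came from separate mice, so p-values measure only the spread between these libraries, which may be technical. Alternatives were relative log expression factors, library size alone, DESeq2 1.42.0, filterByExpr, no further filter, a replicate block, each genotype alone, and each library left out. The fits were also run on counts simulated from the fitted spread with balanced known changes, which does not test the choice of scaling.

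The members, gene lists, named genes and promoter motifs were chosen with earlier results of these data known. Full values are given mainly for members with at least 10 counts on average that were among the 8 smallest p in a direction and called, or were well-known (Ezh1, Ezh2, Kdm6a, Kdm6b, Hdac1, Hdac3, Sirt1, Kat2b, Kat5, Prmt1, Carm1, Setd2, Kmt2a and Kdm1a). Some of these, such as Kdm1a, are given with ranges or changes only. Of other chromatin genes at most the 3 of smallest p per comparison may be named. Positions and exon lengths come from GENCODE M21 and promoters from RefSeq, both on GRCm38; 28 of the 66 members share exon bases with another annotated gene. Marker lists covered mature and immature neutrophils, erythroid cells, monocytes, lymphocytes, stroma, granulocytes other than neutrophils and proliferating cells; lymphocyte markers summed to 11.9 to 45.2 CPM, the eosinophil, basophil and mast cell list to 14.1 to 56.2 CPM and the stroma list to 93.5 to 769 CPM of the library total.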

Additional observations from a re-analysis of the deposited data

Results flagged for a closer look

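The R848 response of Setd7 differed between genotypes by 0.95 (log2, Padi4 KO minus WT) in the test of the difference itself, with lower libraries after R848 in WT. The R848 response of Sirt7 differed by 0.76. Both differences passed an FDR below 0.1 by edgeR and neither passed with DESeq2. The KO responses with library size alone were -0.039 for Setd7 and -0.062 for Sirt7, so a rise in KO depends on the scaling for both.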

How the results depend on the processing

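With relative log expression factors the members called higher and lower were 2 and 5 in the WT response, 1 and 8 in the KO response, and 0 and 1 for the difference of responses. With library size alone they were 0 and 8, 0 and 11, 7 and 3 in unstimulated KO against WT and 9 and 2 after R848. With DESeq2 they were 2 and 3, 1 and 2, 0 and 0, 1 and 3, and 1 and 2 in the order WT response, KO response, difference, unstimulated and after R848. At the FDR alone they were 9 and 9 in WT and 15 and 10 in KO. With filterByExpr 50 members were tested, 5 had a higher difference of responses and 1 rose in KO, and with WT fitted alone 3 rose. The cause was not tested. Among member values past the FDR, the direction turned for Kdm3b (-0.0768) and Sirt7 (-0.062), both in the KO response with library size alone. The KO response of Setd7, which had not passed, also turned with that scaling (-0.039). Padi4 turned in the difference of responses without KO R848 replicate 1 (-0.075, in a range up to 0.60 over single libraries left out).

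Leaving out one library at a time gave 1 to 4 members higher and 3 to 6 lower in WT, 1 to 3 and 5 to 10 in KO, and 0 to 3 and 0 to 3 for the difference, 2 to 5 and 6 to 10 unstimulated, and 1 to 2 and 5 to 9 after R848; the single library left in a group was assumed to vary like the other groups. Of 1062 values of single members past the FDR, over all alternatives, 833 kept the direction and passed the FDR, 225 kept the direction and missed it, 2 (Kdm3b and Sirt7) turned, and 2 had no adjusted p with DESeq2. With DESeq2 43 of 73 missed it and with library size alone 29 of 73. With a replicate block the counts were 1 and 4 in WT, 2 and 6 in KO, 3 and 0 for the difference, 5 and 15 unstimulated and 1 and 6 after R848. Deviations of same-numbered libraries correlated over 0.1 in 0 of 6 pairs of groups. With so few libraries per group, this cannot show whether same-numbered libraries were paired. Members under 10 counts on average are limited by depth.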
